A study of Bos taurus with 24 samples.

Results

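The genes that write, copy and erase DNA methylation were followed in bovine germinal vesicle (GV) and metaphase II (MII) oocytes of May, the spring collection, and July, the summer collection. They were chosen by symbol: the DNA methyltransferases DNMT1, DNMT3A and DNMT3B, their cofactor DNMT3L, the dioxygenases TET1, TET2 and TET3, and UHRF1. Of these 8 symbols, DNMT1, DNMT3A, DNMT3B and UHRF1 had a row in the table of 11306 genes, and these 4 genes are described here. DNMT3L, TET1, TET2 and TET3 were not analysed here. All 4 genes were over 0.1 FPKM in at least 1 library and were therefore among the 9526 genes tested.

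The 24 libraries fell into 4 groups of 6, namely GV oocytes in spring, GV oocytes in summer, MII oocytes in spring and MII oocytes in summer. Each library held a pool of 4 oocytes of a single animal, although the sample labels describe lysis of individual cells. The donors of all groups were adult, non-lactating, non-pregnant Bos taurus beef cows, crossbred from Angus and managed alike in both seasons. MII oocytes were matured in vitro after collection, in a medium with FSH and fetal bovine serum that GV oocytes did not receive. Stage, culture and these additives therefore cannot be told apart. Cumulus cells were stripped from all oocytes with hyaluronidase and vortexing. The same herd was collected in both seasons and each cow's oocytes were divided between the stages, so pools of different groups can share a donor. The labels do not say which cow gave which pool. The tests therefore took the pools as independent, and the p-values measure the spread between pools.

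DNA methylation is the addition of a methyl group to cytosine, mostly in CG dinucleotides. DNMT3A and DNMT3B place new methyl groups, and in the growing mammalian oocyte DNMT3A, helped by DNMT3L, establishes the maternal pattern and the imprints. DNMT1 copies the pattern to the new strand after replication, and UHRF1 recognises DNA methylated on the old strand only and brings DNMT1 to it. The TET enzymes oxidise methylcytosine, which opens the way to its removal. A fully grown oocyte is transcriptionally silent or nearly so, and through maturation its stored messages are degraded, retained or polyadenylated, so a share of the messages can rise without new transcription.

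DNMT1 was the member that differed between the stages. Its level was about 3 times higher in MII than in GV oocytes in both seasons, whereas UHRF1, DNMT3A and DNMT3B did not pass the threshold in any comparison. No member passed it between summer and spring. Levels are FPKM, that is, fragment numbers adjusted to the length of a gene's exons and to library size, which the authors scaled to the same total in every library. An FPKM is thus a share of the listed messages and not an amount per oocyte, and in such bulk pools fewer cells of a type and less RNA per cell cannot be told apart.

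The libraries were unequally deep. Relative to spring GV replicate 1, the depth read from the steps between low values ran from 0.0565 to 6.51, and 5 libraries were at most 0.6, namely spring GV replicate 6 (0.0565), spring MII replicate 6 (0.149), summer GV replicate 2 (0.393), summer MII replicate 6 (0.542) and summer MII replicate 4 (0.568). The first 3 of them also had the lowest mapping rates in the study's alignment table. The 12 measured oocyte markers were detected in every library, with a summed level of 582 to 1870 FPKM. The 22 measured cumulus and granulosa cell markers, with KRT8, STAR and KRT18 at the highest means, summed to 38.9 to 590 FPKM in spring GV, 34.8 to 126 in summer GV, 35.6 to 166 in spring MII and 27.6 to 86.4 in summer MII oocytes. The highest sums were in spring GV replicate 6 (590) and replicate 3 (215), spring MII replicate 6 (166) and summer GV replicate 2 (126). Between 1 and 10 of the 22 markers were at the lowest value of the table in a library. Markers that define granulosa cells were high in spring GV replicate 3: INHA was at 37.2, FST at 20.3 and AMH at 13.4 FPKM, where the next highest library had 1.73, 0.553 and 0.363 FPKM. VIM, the intermediate filament of such somatic cells, was at 75.7 FPKM in that library and at most 2.16 elsewhere, whereas FSHR and CYP19A1 reached at most 0.0352 and 0.0687 FPKM in any library. In spring GV replicate 6 most of the sum came from the keratin KRT18, at 392 FPKM. In summer GV replicate 2 STAR was at 64.3 FPKM, and the oocyte marker sum was the highest of all libraries, at 1870 FPKM. The members in spring GV replicate 3 were within the range of the other GV pools.

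DNMT1 lies on chromosome 7 from 15913445 to 15956918 on the minus strand of UMD3.1, the assembly of the deposited table. From the steps between values, it held 74 to 4767 reads per library, with a median of 1256. Its level ran from 1.2 to 8.5 FPKM and placed it between the 74.0th and the 92.3rd percentile of the genes of its library.

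In spring GV oocytes DNMT1 was at 1.2, 1.51, 1.25, 1.65, 1.32 and 2.91 FPKM in replicates 1 to 6. In spring MII oocytes it was at 2.87, 5.23, 6.2, 6.68, 6.51 and 4.55 FPKM. The groups touched only through GV replicate 6, which lay above MII replicate 1 and below the other 5 MII pools. The means were 1.64 ± 0.646 FPKM (SD, n = 6) in GV and 5.34 ± 1.46 FPKM (SD, n = 6) in MII oocytes, a ratio of 3.25. The difference in log2(FPKM + 1) was 1.26 (standard error 0.22, limma with Benjamini-Hochberg adjusted p = 0.00164 over all genes tested). An exact two-sided permutation test over all ways of dividing the 12 libraries gave p = 0.00433, where 0.00216 is the smallest p it allows.

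In summer GV oocytes DNMT1 was at 1.33, 3.4, 1.44, 2.45, 1.63 and 2.13 FPKM in replicates 1 to 6. In summer MII oocytes it was at 3.54, 8.5, 2.96, 6.29, 7.07 and 6.43 FPKM. Again 1 GV pool, replicate 2, lay above the lowest MII pool. The means were 2.06 ± 0.78 FPKM (SD, n = 6) in GV and 5.8 ± 2.13 FPKM (SD, n = 6) in MII oocytes, a ratio of 2.81. The difference in log2(FPKM + 1) was 1.12 (standard error 0.25, limma adjusted p = 0.00458; exact permutation p = 0.00433).

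Both GV pools that reached into the MII range, spring replicate 6 and summer replicate 2, were among the shallow libraries of low mapping rate with high cumulus marker sums. KRT18 held 392 of the 590 FPKM in the first sum, and STAR held 64.3 of the 126 FPKM in the second. The oocyte marker sums of these 2 pools were 799 and 1870 FPKM, the second being the highest of all libraries. The part of these properties in the DNMT1 level was not tested. Spring GV replicate 3, with the granulosa markers, had 1.25 FPKM, and without it the spring difference was 1.22 (limma adjusted p = 0.00381). Without the 3 libraries of lowest mapping rate, the GV and MII pools did not overlap in either season. The ratio of the means was then 3.97 in spring (5 against 5 pools, exact permutation p = 0.00794, the smallest possible) and 3.23 in summer (5 GV against 6 MII pools, exact permutation p = 0.00433). Among all genes tested, 12.1% in spring and 7.11% in summer were likewise higher in MII oocytes without overlap in those libraries.

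**Figure D1:**
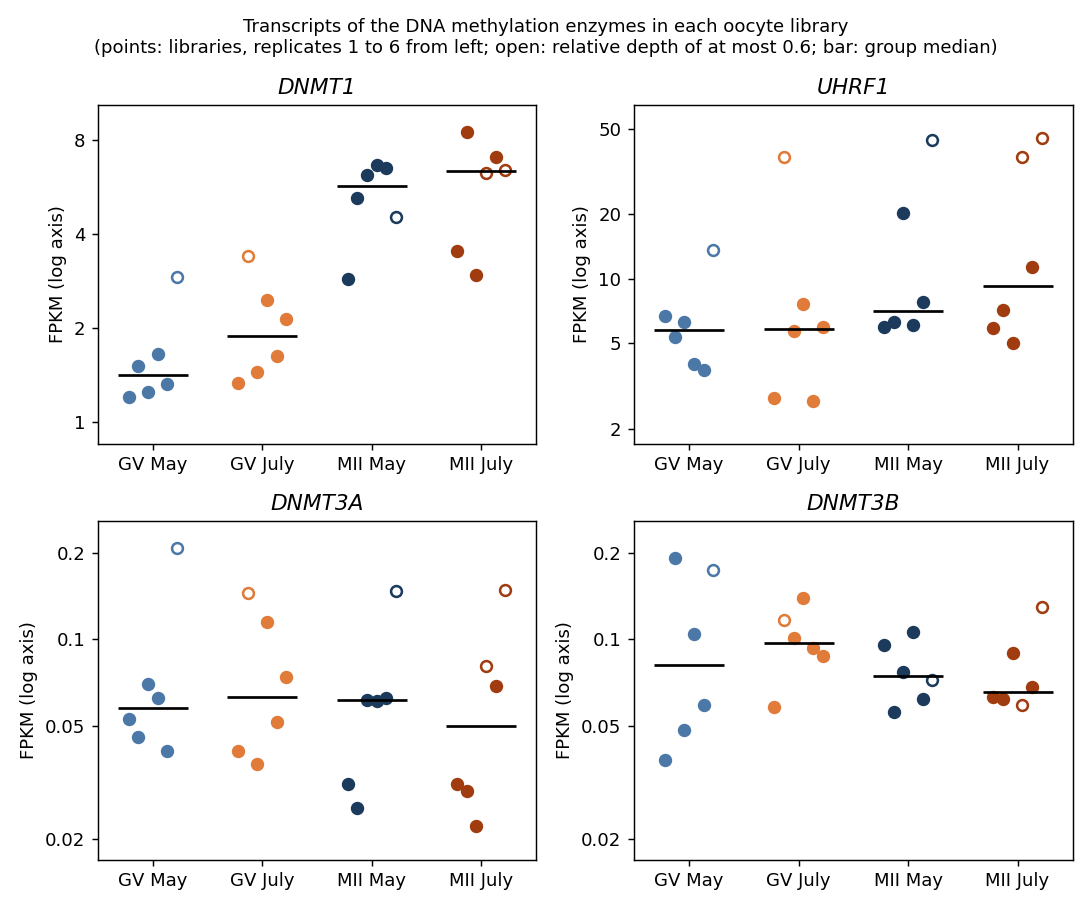
FPKM of DNMT1, UHRF1, DNMT3A and DNMT3B (log axes) in each of the 24 libraries, by stage and month; points are libraries in the order of replicates 1 to 6, open points have a relative depth of at most 0.6, and bars are group medians. DNMT1 medians were 1.41 and 1.88 FPKM in the GV groups and 5.72 and 6.36 in the MII groups, and the 2 GV pools highest in DNMT1 are open points.

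One of the 4 members, DNMT1, passed the threshold as higher in MII oocytes in each season, and none passed as lower. Over all 9526 genes, 9.45% were higher and 14.7% lower in MII oocytes in spring, and 7.67% were higher and 23.1% lower in summer. The split of the calls over all genes depended on the scaling: of the called genes, 39.1% were higher in spring and 25% in summer, against 59.1% and 54.8% after quantile normalization. DNMT1 was higher in MII oocytes under each scaling tried, in both seasons.

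UHRF1 (chromosome 7, 20436669 to 20469913, minus strand) was the most abundant of the members, with 2.7 to 45.5 FPKM and a place between the 82.3rd and 97.4th percentile of its library. It held 265 to 8506 reads per library. Its values were uneven within every group.

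In GV oocytes UHRF1 was at 6.74, 5.34, 6.27, 3.99, 3.74 and 13.6 FPKM in spring replicates 1 to 6. In summer it was at 2.77, 37.2, 5.74, 7.61, 2.7 and 5.94 FPKM. In both seasons 1 pool stood above the other 5, spring replicate 6 and summer replicate 2, and the medians were 5.81 and 5.84 FPKM.

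In MII oocytes UHRF1 was at 5.95, 6.3, 20.3, 6.07, 7.8 and 44.3 FPKM in spring. In summer it was at 5.88, 7.18, 5.03, 37.0, 11.4 and 45.5 FPKM. Spring replicates 3 and 6 and summer replicates 4 and 6 were high, the remaining pools ranged from 5.03 to 11.4 FPKM, and the medians were 7.05 and 9.31 FPKM. The GV and MII pools overlapped widely.

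The mean of UHRF1 was 2.29 times as high in MII as in GV oocytes in spring, 15.1 ± 15.3 against 6.61 ± 3.63 FPKM (SD, n = 6 each). The difference in log2(FPKM + 1) of 0.77 did not pass the threshold (standard error 0.47, limma adjusted p = 0.244; exact permutation p = 0.182). In summer the means were 18.7 ± 17.8 and 10.3 ± 13.3 FPKM (SD, n = 6 each), and the log2 difference was 0.85 (standard error 0.66, limma adjusted p = 0.35; exact permutation p = 0.247). The 95% intervals of these differences, -0.25 to 1.79 in spring and -0.58 to 2.28 in summer, held both 0 and the size of the DNMT1 difference. A few libraries decided the ratio: in summer, the ratio of the MII to the GV mean was 1.81 with all libraries, 3.77 without GV replicate 2, and 1.49 in libraries of relative depth over 0.6.

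UHRF1 was high in the 5 shallowest libraries, without following depth among them. The shallowest, spring GV replicate 6 (0.0565), had the lowest of the 5 values. Spring GV replicate 3, next in depth at 0.609, was at 6.27 FPKM. In the 5 libraries of relative depth at most 0.6 UHRF1 ranged from 13.6 to 45.5 FPKM with a median of 37.2, and all 5 were among the 6 highest of the 24 libraries. In the other 19 libraries it ranged from 2.7 to 20.3 FPKM with a median of 5.95. DNMT3A had the same pattern at a far lower level, 0.0806 to 0.208 FPKM in the 5 shallow libraries and 0.0223 to 0.115 in the others, and again all 5 were among its 6 highest. DNMT1 took part less evenly: the shallow GV pools, at 2.91 and 3.4 FPKM, lay above the 10 other GV pools (1.2 to 2.45), but the 3 shallow MII pools (4.55 to 6.43) lay within the range of the 9 other MII pools (2.87 to 8.5). DNMT3B was at 0.0591 to 0.175 FPKM in the shallow libraries and at 0.0379 to 0.193 in the others. Genes detected in all libraries were also higher in these 5, though less so than UHRF1. The median-of-ratios factor is the median ratio, in a library, of genes detected in all libraries to their geometric mean over the libraries. It was 1.262 to 1.862 in the 5 shallow libraries and at most 1.203 in the others. A gene enters this factor only if it was detected in the shallow libraries too, so the factor does not speak for all genes. The share of all genes with the pattern of UHRF1 was not counted. The limit of 0.6 was set after the values were seen, and the part of depth in the levels was not tested.

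**Figure D2:**
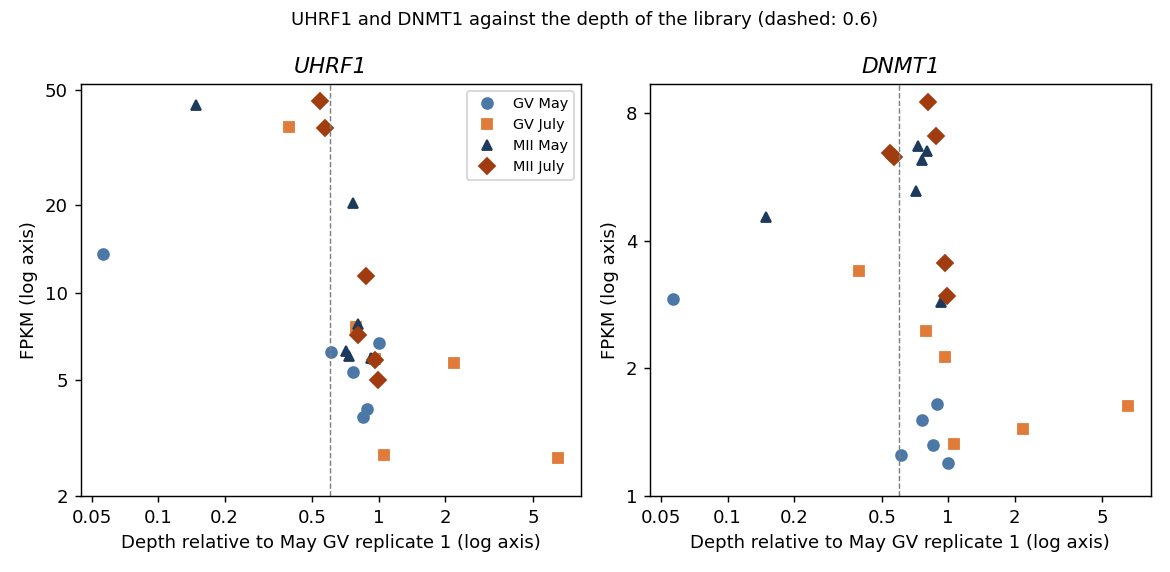
FPKM of UHRF1 (left) and DNMT1 (right) against the depth of the library relative to spring GV replicate 1 (all axes log); symbols give stage and month, and the dashed line marks 0.6. UHRF1 exceeded 13 FPKM in each of the 5 libraries left of the line and in 1 of the 19 right of it, while DNMT1 separated by stage on the right.

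The order of the members was nearly the same in all libraries. UHRF1 was above DNMT1 in 22 of 24 libraries, and DNMT1 was above both DNMT3A and DNMT3B in 24 of 24. The order of DNMT3A and DNMT3B was not fixed, with DNMT3A higher in 9 libraries and DNMT3B in 15. These levels are per exon length and within a library, so the order does not depend on how the libraries were scaled.

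The ratio of UHRF1 to DNMT1 in a library had a median of 2.81. It was 5.6, 3.54, 5.0, 2.41, 2.84 and 4.67 in spring GV and 2.08, 11.0, 3.99, 3.1, 1.65 and 2.78 in summer GV replicates 1 to 6. In MII oocytes it was 2.07, 1.21, 3.27, 0.909, 1.2 and 9.73 in spring and 1.66, 0.845, 1.7, 5.88, 1.62 and 7.07 in summer. Thus the pools in which DNMT1 exceeded UHRF1 were MII pools, spring replicate 4 and summer replicate 2, and the highest ratios stood in shallow libraries of either stage. The median ratio was 4.03 and 2.93 in the GV groups and 1.52 and 1.68 in the MII groups, which is given as a description.

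**Figure D3:**
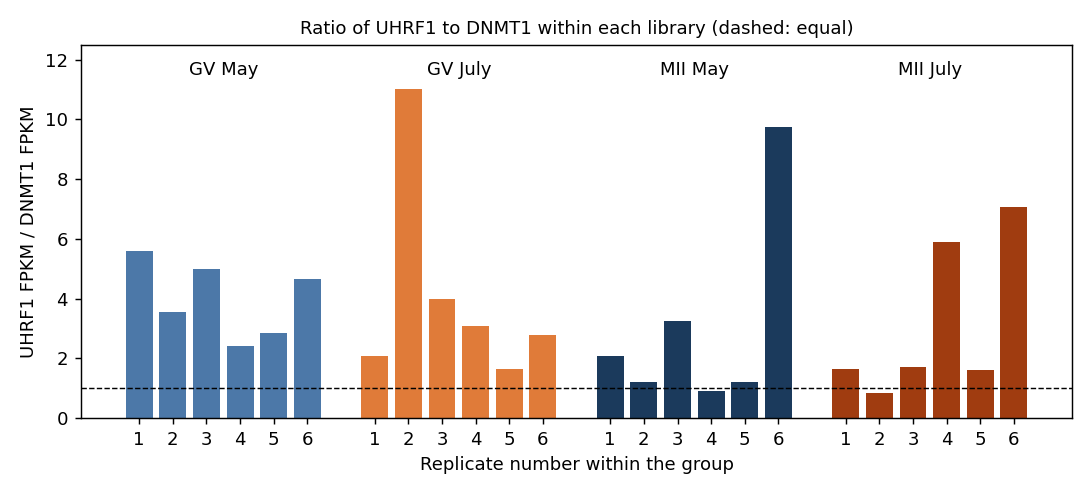
Ratio of UHRF1 FPKM to DNMT1 FPKM in each library, in bars from 0, by group and replicate number; the dashed line marks equal levels. The ratio fell below 1 in spring MII replicate 4 (0.909) and summer MII replicate 2 (0.845) and was highest in summer GV replicate 2 (11.0).

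The de novo methyltransferases were close to the floor of the data. DNMT3A (chromosome 11, 73963487 to 74066747, plus strand) ranged from 0.0223 to 0.208 FPKM, which rested on 12 to 288 reads per library with a median of 41. DNMT3B (chromosome 13, 62700411 to 62721125, plus strand) ranged from 0.0379 to 0.193 FPKM, on 2 to 117 reads with a median of 11. Their median places were at the 32.1st and the 36.9th percentile of a library. The deposited values include the 0.01 that the authors' table adds to every entry.

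DNMT3A averaged 0.0799 ± 0.0637 FPKM in spring GV, 0.0772 ± 0.0441 in summer GV, 0.0649 ± 0.0437 in spring MII and 0.0636 ± 0.0481 in summer MII oocytes (SD, n = 6 each). The groups overlapped, and the SD was 0.571 to 0.797 of the mean. DNMT3B averaged 0.103 ± 0.067 and 0.0994 ± 0.0275 FPKM in spring and summer GV oocytes and 0.078 ± 0.0192 and 0.0787 ± 0.0275 in spring and summer MII oocytes (SD, n = 6 each). Between stages, the ratio of the MII to the GV mean was 0.811 in spring and 0.824 in summer for DNMT3A, and 0.758 and 0.792 for DNMT3B. None of these passed the threshold (limma adjusted p of 0.733 and 0.701 for DNMT3A, and of 0.557 and 0.37 for DNMT3B), and the smallest of the 4 exact permutation p-values was 0.221. At these levels the scale of log2(FPKM + 1) compresses differences. On log2 of the deposited value the stage differences were -0.28 (standard error 0.53) in spring and -0.41 (standard error 0.52) in summer for DNMT3A, and -0.16 (standard error 0.48) and -0.35 (standard error 0.32) for DNMT3B. Such errors leave room for a change of either sign, and a difference of this size was not detectable. Larger differences at similar levels did pass in the same fits, as for the folate carrier SLC19A1.

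Heat stress in summer was the question of the season comparisons, and no member passed the threshold between July and May at either stage. At an adjusted p under 0.05, 0% of all 9526 genes were called in either season comparison, and 0 of the 4 members had an unadjusted p under 0.05 in these fits, against 1.55% of all genes in GV and 2.11% in MII oocytes. The fits had limited reach. In data simulated with the spread of these groups, they recovered 28% of changes of 1 on the log2 scale in GV and 36% in MII oocytes. For DNMT1 the summer minus spring difference in log2(FPKM + 1) was 0.21 in GV oocytes (95% interval -0.24 to 0.66, limma adjusted p = 1, exact permutation p = 0.301) and 0.07 in MII oocytes (-0.47 to 0.62, limma adjusted p = 1, exact permutation p = 0.771). The DNMT1 difference in GV oocytes was 0.10 without summer replicate 2, 0.33 without spring replicate 6 and 0.44 with log2 relative depth as a covariate, where its unadjusted p was under 0.05 (limma adjusted p = 0.339). In MII oocytes it was -0.06 without spring replicate 1, -0.04 without summer replicate 2, 0.21 without summer replicate 3 and -0.05 where the relative depth was over 0.6. For UHRF1 it was 0.13 in GV oocytes (-0.96 to 1.23, limma adjusted p = 1, exact permutation p = 0.844) and 0.22 in MII oocytes (-1.18 to 1.61, limma adjusted p = 1, exact permutation p = 0.745). These intervals allow a change of UHRF1 by more than 1 on the log2 scale in either direction in MII oocytes, so equal levels were not shown. The sign for UHRF1 rested on single libraries: the ratio of the summer to the spring mean in GV oocytes was 1.56 with all libraries and 0.95 without spring replicate 6 and summer replicate 2. In MII oocytes it was 1.23 with all libraries, 2.01 without spring replicate 6, and 0.796 where the relative depth was over 0.6. For DNMT3A and DNMT3B the exact permutation p-values of the season comparisons were between 0.939 and 0.974 on log2(FPKM + 1), a scale that compresses differences at these levels. On log2 of the deposited value they were between 0.695 and 0.972. Both genes rest on few reads, so equal levels were not shown.

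The rise of DNMT1 from GV to MII oocytes was also compared between the seasons. Summer minus spring, it differed by -0.14 on the log2 scale (standard error 0.33, 95% interval -0.81 to 0.54, limma adjusted p = 1 in a fit over all 4 groups). For UHRF1 the difference between seasons was 0.08 (standard error 0.84, limma adjusted p = 1). None of the 4 members had an unadjusted p under 0.05 in this test, against 1.8% of all genes, and 0% of all genes passed after adjustment.

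**Figure D4:**
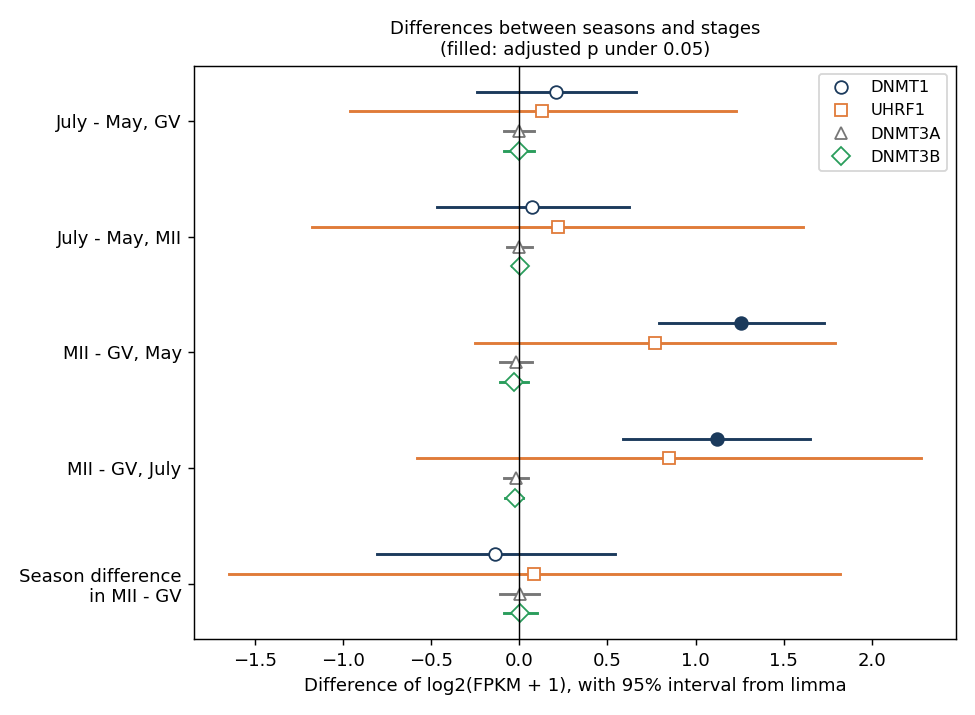
Differences in log2(FPKM + 1) with 95% limma intervals for the 4 members in the 2 season comparisons, the 2 stage comparisons and the difference between seasons in the stage change; filled symbols have an adjusted p under 0.05. The DNMT1 stage differences (1.26 in May and 1.12 in July) are the filled points, UHRF1 has the widest intervals, and DNMT3A and DNMT3B are compressed near 0 by the scale.

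The genes whose levels ranked the 24 libraries most like a member were taken from the 3140 genes with a median of at least 1 FPKM. For DNMT1 they were TPX2, a spindle assembly factor (Spearman's rho 0.966), RBBP7, a histone-binding protein (0.963), and CKAP5, a microtubule polymerase (0.963). For UHRF1 they included HYOU1, a chaperone of the endoplasmic reticulum (0.951), and CCDC117 (0.942). Within the 12 GV and the 12 MII libraries taken separately, rho with DNMT1 was 0.79 to 0.923 and rho of HYOU1 and CCDC117 with UHRF1 was 0.79 to 0.972. The libraries share their stage and depth, so these values are descriptions. HYOU1 and CCDC117 spanned 0.488 to 14.1 and 0.348 to 13.0 FPKM over the libraries.

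Around the members, lists of other genes of the pathway were counted in the same fits. None of the listed genes passed the threshold between seasons at either stage. The counts between stages are descriptions, to be read against the shares of all genes, which were 9.45% higher and 14.7% lower in MII oocytes in spring and 7.67% and 23.1% in summer. Without the 3 libraries of lowest mapping rate these shares were 19.3% and 22.6% in spring and 13.1% and 26.2% in summer, and after quantile normalization 20.4% and 14.1% in spring and 22.7% and 18.7% in summer. Of 16 tested partners and recruiters of the methyltransferases, 2 were higher and 2 lower in MII oocytes in spring, and 1 was higher and 2 lower in summer, near the shares of all genes in spring and below their share of lower genes in summer. DMAP1, which binds DNMT1, fell from 3.58 ± 2.35 to 0.676 ± 0.362 FPKM in spring and from 3.25 ± 3.04 to 0.549 ± 0.27 FPKM in summer (SD, n = 6 each; limma adjusted p = 0.0175 and 0.0161). SUV39H1, a methyltransferase of histone H3 lysine 9, fell as well, by 0.81 and 1.09 on the log2 scale (limma adjusted p = 0.0123 and 0.0193). CBX5, which binds the mark that SUV39H1 makes, rose in spring from 0.646 ± 0.209 to 1.43 ± 0.283 FPKM (limma adjusted p = 0.0152). In summer CDCA7, an activator of the chromatin remodeler HELLS, rose from 3.07 ± 1.43 to 8.47 ± 5.05 FPKM (limma adjusted p = 0.0356), a call that was lost on leaving out any of GV replicates 1, 3, 5 and 6 or MII replicates 4, 5 and 6, in libraries of relative depth over 0.6 and with log2 relative depth as a covariate (adjusted p up to 0.0836 over all alternatives). In spring the number of higher partners was 6 of 16 without the libraries of lowest mapping rate and 7 of 16 after quantile normalization, settings under which the share of higher genes rose to 19.3% and 20.4% over all genes as well.

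Of 8 tested maternal protectors of methylation and imprints, 3 were higher and 1 lower in MII oocytes in spring, and 1 was higher and 1 lower in summer. DPPA3, which shields the maternal genome from oxidation by TET3 and keeps UHRF1 from chromatin, was by far more abundant than the enzymes. It rose from 219 ± 103 to 507 ± 103 FPKM in spring and from 249 ± 56.7 to 566 ± 117 FPKM in summer (SD, n = 6 each; limma adjusted p = 0.00927 and 0.000813). ARID4A, a chromatin protein linked to imprinting, rose in spring from 0.74 ± 0.702 to 2.29 ± 0.351 FPKM (limma adjusted p = 0.00625). OOEP, of the subcortical maternal complex, passed in spring at a limma adjusted p of 0.0426, but not under either other scaling, without the filter on low values, nor on leaving out any of GV replicates 3 to 5 or MII replicates 1 to 5 (adjusted p up to 0.182 over all alternatives). NLRP5, of the same complex, fell in summer from 11.1 ± 7.14 to 2.66 ± 1.93 FPKM (limma adjusted p = 0.00816). In summer 4 of 8 were higher without the libraries of lowest mapping rate, against 13.1% of all genes.

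Of 19 tested genes of repair and demethylation linked to the TET enzymes, 2 were higher and 1 lower in MII oocytes in spring, and 2 were higher and 2 lower in summer. Some of them, such as OGDH and the IDH genes, do not act after the TET enzymes. NEIL3, a DNA glycosylase, rose from 1.86 ± 0.522 to 4.63 ± 1.18 FPKM in spring and from 2.3 ± 0.622 to 4.69 ± 1.45 FPKM in summer (SD, n = 6 each; limma adjusted p = 0.00359 and 0.0109). POLB, the polymerase of base excision repair, rose in spring from 1.72 ± 0.417 to 3.65 ± 0.629 FPKM (limma adjusted p = 0.00542). APEX1, which cuts abasic sites, fell in summer from 21.5 ± 6.14 to 11.0 ± 4.02 FPKM (limma adjusted p = 0.0109). OGDH, which consumes the 2-oxoglutarate that TET enzymes need, was lower in both seasons at levels under 0.12 FPKM, and its spring call was lost after quantile normalization, with all 4 groups in one fit, without the trend in the moderation and on leaving out any of GV replicates 2, 4 and 5 or MII replicates 1 to 5 (adjusted p up to 0.147 over all alternatives).

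Of 7 tested genes in a list of readers of methylated CG sites and their family members, 1 was higher and 1 lower in MII oocytes in each season. MBD4, a reader that also removes mismatched thymine, rose from 5.06 ± 2.0 to 12.2 ± 4.24 FPKM in spring and from 7.88 ± 5.47 to 15.4 ± 5.22 FPKM in summer (SD, n = 6 each; limma adjusted p = 0.00789 and 0.0419). The summer call of MBD4 was lost on leaving out any of GV replicates 1 and 3 to 6 or MII replicates 2, 4, 5 and 6 and with log2 relative depth as a covariate (adjusted p up to 0.0898 over all alternatives). The lower genes of this list were MBD1 in spring (log2 difference -0.37, limma adjusted p = 0.0355), and MBD3, a family member, in summer (-0.62, limma adjusted p = 0.0271). MBD1 did not pass without the libraries of lowest mapping rate, in libraries of relative depth over 0.6, after quantile normalization or with the replicate block, nor on leaving out any of GV replicates 2, 4 and 5 or MII replicates 2 to 6 (adjusted p up to 0.0766 over all alternatives). In spring the mapping and depth settings left out the same libraries. MBD3 did not pass on leaving out any of GV replicates 3, 4 and 6 or MII replicates 1, 2 and 5 (adjusted p up to 0.0643 over all alternatives). Of 6 tested genes of the histone marks that guide or block methylation, 0 passed in either season, and 0 had an unadjusted p under 0.05, against 38.8% of all genes in spring and 42.1% in summer. Without the libraries of lowest mapping rate, 3 of these 6 were higher in spring and 0 in summer, against 19.3% and 13.1% of all genes.

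Of 18 tested genes that supply the methyl donor S-adenosylmethionine and folate, 2 were higher and 4 lower in MII oocytes in spring, and 1 was higher and 4 lower in summer, with 22.2% lower in either season against 14.7% and 23.1% of all genes. GNMT, which uses up S-adenosylmethionine by methylating glycine, fell from 2.7 ± 2.28 to 0.104 ± 0.105 FPKM in spring and from 1.88 ± 1.24 to 0.144 ± 0.127 FPKM in summer (SD, n = 6 each; limma adjusted p = 0.00304 and 0.00545). SHMT2, the mitochondrial serine hydroxymethyltransferase, fell from 5.74 ± 1.6 to 2.23 ± 1.16 FPKM and from 6.98 ± 3.03 to 2.31 ± 1.26 FPKM (limma adjusted p = 0.00759 and 0.00484). SLC19A1, the folate carrier, fell from 0.116 ± 0.0415 to 0.0191 ± 0.0107 FPKM and from 0.124 ± 0.05 to 0.0166 ± 0.00929 FPKM (limma adjusted p = 0.0047 and 0.00121). Without the libraries of lowest mapping rate, 8 of 18 were lower in spring and 6 of 18 in summer, against 22.6% and 26.2% of all genes.

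**Figure D5:**
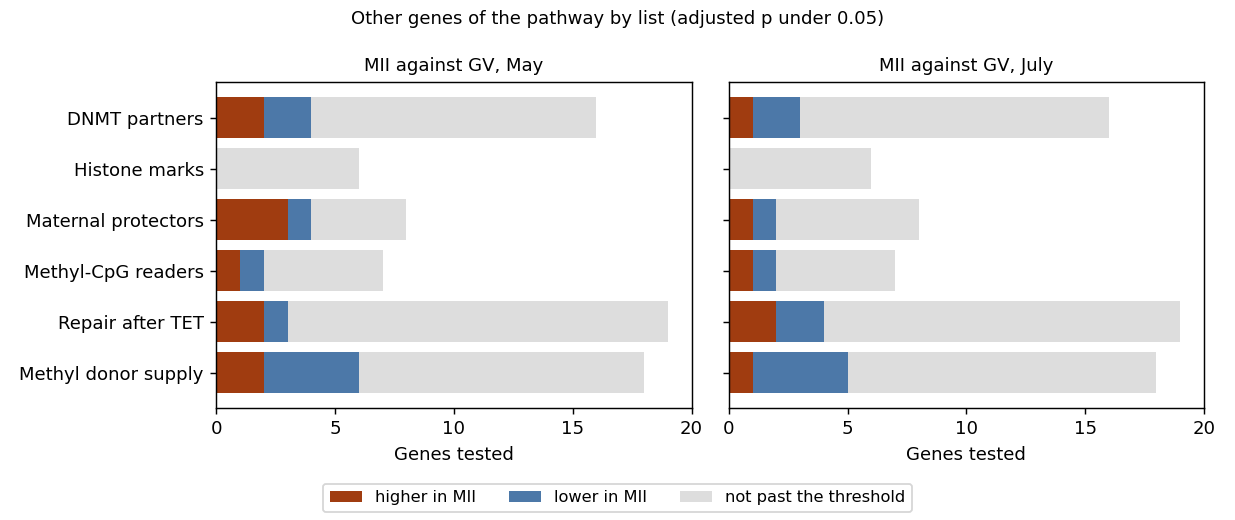
Number of tested genes of 6 lists around the DNA methylation enzymes that were higher, lower or not past the threshold in MII against GV oocytes, in May (left) and July (right), as stacked bars from 0. In both months most genes of each list are not past the threshold, except among the maternal protectors in May, where 4 of 8 passed.

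The cell type markers were counted between stages as well. Of the 12 tested oocyte markers, 3 were higher and 2 lower in MII oocytes in spring, and 1 was higher and 3 lower in summer. These are 25% and 16.7% in spring and 8.33% and 25% in summer. The shares of all genes were 9.45% higher and 14.7% lower in spring and 7.67% and 23.1% in summer. ZP2, a protein of the zona pellucida, rose by 1.65 on the log2 scale in spring (limma adjusted p = 0.000629), and OOSP1, an oocyte-secreted protein, rose by 1.37 in spring and 1.52 in summer (limma adjusted p = 0.00625 and 9.38e-05). ZAR1, a maternal effect gene, fell by 2.32 and 2.94 (limma adjusted p = 0.00129 and 0.000194), and NLRP5 is also in this list. Of the 18 tested cumulus and granulosa cell markers, 1 was higher in spring, and 1 was higher and 1 lower in summer. These are 5.56% higher in spring, and 5.56% higher and 5.56% lower in summer, below the shares of all genes. HAS2, the hyaluronan synthase of the expanding cumulus, rose from 0.297 ± 0.132 to 1.82 ± 1.07 FPKM in spring and from 0.486 ± 0.373 to 2.15 ± 1.09 FPKM in summer (SD, n = 6 each; limma adjusted p = 0.00277 and 0.00557). GREM1, another marker of the expanding cumulus, fell in summer (log2 difference -0.45, limma adjusted p = 0.0166). The part of adhering cumulus cells in the levels of the members was not tested.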

How the data were processed

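Bovine oocyte RNA had been amplified with Smart-seq2 chemistry and sequenced in pairs. The authors trimmed the reads and aligned them with STAR (2.5.3a in the submitters' processing notes) to UMD3.1, and deposited FPKM values. The values show a common total (86768.1 to 86768.2) and an added 0.01, steps not named in the sources used here. Partek Flow, the authors' tool for differential expression, was not used.

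The members and lists were chosen with earlier results of these data known. Genes over 0.1 FPKM in at least 1 library were tested with limma 3.58.1 (R 4.3.3) on log2(FPKM + 1), with the spread moderated along mean expression, and p-values were adjusted by Benjamini-Hochberg over the 9526 genes; a gene passed under 0.05. Only the 2 groups compared entered a fit, except for the difference between seasons. All members were named, and of each list at most the 3 passing genes of smallest p per comparison. Exact two-sided permutation tests used the mean log2 values. Relative depth and reads came from steps between values in Python 3.11.15 (numpy 2.4.6, pandas 2.3.3): 99.8% to 100.0% of the values checked lay within 0.1 of a whole multiple. A read count obtained in this way is exact only if the smallest step is 1 read. Both procedures were tested on simulated data. Alternatives were another pseudocount or none, other filters, a joint fit of the 4 groups, median-of-ratios scaling, quantile normalization, the replicate number as a block, other moderation, the study's rule (unadjusted p under 0.05 and fold over 2), and leaving out libraries. RefSeq was used for symbols only, and sequences were not used here. For DNMT1 and UHRF1, the 3 genes of most similar rank over the libraries were sought, of which 1 is not reported here.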

Additional observations from a re-analysis of the deposited data

Results flagged for a closer look

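Of the 16 sets of 6 libraries (4 members in 4 groups), 4 held a library whose Dixon ratio exceeded the 95% critical value. The ratio was taken on log2(FPKM + 1), as the gap to the nearest of the others divided by the range of the set. The critical value assumes normal values, which was not checked, and the sets shared libraries, so 1 in 20 cannot be taken as the chance rate here. DNMT1 was at 2.91 FPKM in spring GV replicate 6, against 1.2 to 1.65 in the others of its group. DNMT3A was at 0.208 FPKM in the same library, against 0.0407 to 0.0698. DNMT3A was also high in spring MII replicate 6, at 0.148 FPKM against 0.0257 to 0.0623. UHRF1 was at 37.2 FPKM in summer GV replicate 2, against 2.7 to 7.61. These 3 libraries had relative depths of 0.0565, 0.149 and 0.393 and cumulus marker sums of 590, 166 and 126 FPKM. Their oocyte marker sums were 799, 1010 and 1870 FPKM, in the same order. KRT18 held 392 FPKM of the first cumulus sum, and STAR held 64.3 FPKM of the third. INHA, FST and AMH were at most 1.73, 0.553 and 0.363 FPKM in these libraries, whereas GREM1 was highest in the first (1.25) and HAS2 in the second (3.99). The part of depth and of cumulus cells was not tested.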

How the results depend on the processing

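Of 534 recomputed values of the 4 members, all kept their side of the threshold, and 89 values that passed no threshold changed sign. This count leaves out the other listed genes. Calls of CDCA7, OOEP, MBD1, MBD3, MBD4 and OGDH were lost under some alternatives, as given above. The DNMT1 stage difference passed in all 13 alternatives and on leaving out each of the 12 libraries in turn in both seasons. It ranged from 1.16 to 1.72 in spring (1.19 to 1.39 when leaving out 1 library), and from 0.96 to 1.47 in summer (1.01 to 1.26). The alternatives overlap: in spring the mapping and depth settings left out the same libraries. In summer the mapping setting left out GV replicate 2 only. With log2 relative depth as a covariate, an alternative chosen after seeing the data, the summer value was 0.96 and missed the fold of 2 of the study's rule. UHRF1 came nearest to the threshold in spring with the same covariate (0.87, limma adjusted p = 0.0558), and in summer without the low-mapping libraries (1.31, limma adjusted p = 0.0817), where it met the study's rule. Whether the replicate numbers pair the samples could not be decided. Same-numbered libraries deviated together at a correlation of -0.441 to 0.764. Between the seasons in MII oocytes 4 of 6 correlated best with their own number, and in the other comparisons 1 or 2 of 6 did. With the replicate number as a block, DNMT1 kept its stage differences of 1.26 in spring and 1.12 in summer (limma adjusted p = 0.00579 and 0.00276), UHRF1 in spring had an adjusted p of 0.0668, and 1 of 4 members passed in each stage comparison. Over all genes, 900 were higher and 1404 lower in MII oocytes in spring, against 1841 and 2150 without the low-mapping libraries and 1941 and 1346 after quantile normalization. In summer 731 were higher and 2198 lower, against 2159 and 1780 after quantile normalization and 1371 and 2357 with median-of-ratios scaling. The median difference over all genes was -0.03 and -0.02, and -0.18 and -0.30 without a pseudocount. DNMT3A and DNMT3B rest on few reads.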
